A study of Rattus norvegicus with 144 samples.

Results

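Blood RNA taken 6 h after 2000 mg/kg acetaminophen (APAP) was compared with blood RNA taken 6 h after vehicle alone. The comparison holds 12 of the 72 rats of the series, 6 a side, and 24 of its 144 arrays. Rats were chosen by the 6 h label of their arrays and by the dose that a deposited key gives for the rat's number. Of the numbers in that key 19 lack zeros at an end and were matched on their other digits, and the time in the key equalled that of the label for all 72 rats.

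Both groups were male F344/N rats 10 to 12 weeks old. The treated rats received APAP by oral gavage in 0.5% ethyl cellulose, given in 2 portions so that more would be absorbed, and the control rats received the vehicle only. The series, which its labels call a blinded blood test set, has 6 rats in each group, with further groups given 150 or 1500 mg/kg and groups killed after 3 h or 24 h. For each rat 2 arrays of opposite dye assignment were hybridised with a pool of equal amounts of RNA from 6 vehicle animals of the same time. Nothing in the labels says whether those 6 are also the 6 vehicle rats measured singly. A rat's value is the log2 ratio of rat over pool, averaged over its 2 arrays, and a difference is the mean of the 2000 mg/kg rats minus that of the vehicle rats.

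APAP is an analgesic that in overdose injures the liver, where cytochrome P450 enzymes turn it into a reactive quinone imine that consumes glutathione. Whole blood is a mixture of red cells, platelets, neutrophils, lymphocytes and monocytes, and its RNA is the sum over these cells. Stress hormones are known to move lymphocytes out of the blood and neutrophils into it, so transcripts of blood can change through the cell mixture as well as within cells. In bulk blood, fewer cells of a type and less RNA per cell cannot be told apart, and this holds for every group of genes below.

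Neither the log base of the deposited ratios nor their direction is stated in these sources. A log10 ratio of Cy5 over Cy3 was taken as likely from the number format, and every fold, rise and fall below rests on it; in the other direction each rise would be a fall and each fall a rise. Over all 14678 features tested, the differences from the rats' Cy5 arrays and from their Cy3 arrays had the same sign in 10742, with a correlation across features of 0.666; both come from the same 12 rats. Each probe's mean over all arrays of the same dye orientation was subtracted before the 2 arrays of a rat were correlated over probes. What remained correlated only weakly across the 12 rats of the comparison. The correlation was between -0.03 and 0.44 in the 2000 mg/kg rats and between -0.22 and 0.20 in the vehicle rats. The arrays came in 2 designs, of which the smaller lacks 500 features. In each group 5 rats were on the smaller design, and with those alone 1491 features were called, against 1354 with all rats. Exact zeros, treated as missing, made up 7.97 to 18.4% of values per array at 2000 mg/kg and 3.20 to 13.4% in vehicle.

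Rats 2864 (2000 mg/kg) and 6034 (vehicle) stood apart from their groups for several genes. Rat 2864, the only 2000 mg/kg rat on the full array design, was set apart as the highest of its group, and so the least lowered, for 11 of the genes named below. Without it 1617 features were called. Without rat 6034, the lowest of its group for Gcg, Cldn5 and S100a10, Cldn5 lost its call. The lowest count came without rat 8597 (2000 mg/kg), at 921 features, of which 74 were higher and 847 lower. Of the 147 genes named here that changed, 37 lost their call without at least 1 rat, which is given beside them. On Cy3 arrays alone 44 lost it, on Cy5 arrays alone 28, with arrays centred and scaled 28, and 11 in a fit of single arrays that took the rat as a random block and not the mean of its arrays.

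At 6 h after 2000 mg/kg the main movement in blood was downward and spread over the genes of protein synthesis, protein breakdown, respiration and lymphocyte signalling. With limma's moderated test over 14678 features and Benjamini-Hochberg adjustment, 1354 features (9.22%) passed an adjusted p of 0.05, two-sided. Of these 141 (0.961% of those tested) were higher at 2000 mg/kg and 1213 (8.26%) lower, while the median difference over all features was 0.02. This split depended on the setting: with array weights 943 features were higher and 2329 lower, and against the pool in place of the single vehicle rats 2592 were higher and 3063 lower. Were the ratios Cy3 over Cy5, 1213 would be higher and 141 lower. Among named genes 70 rose and 756 fell, and the other 528 changed features were probes without a gene symbol. In 1022 features (6.96%) every 2000 mg/kg rat lay below every vehicle rat, and in 88 (0.6%) every one lay above. The change was at least 1.5-fold in 738 features.

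**Figure D1:**
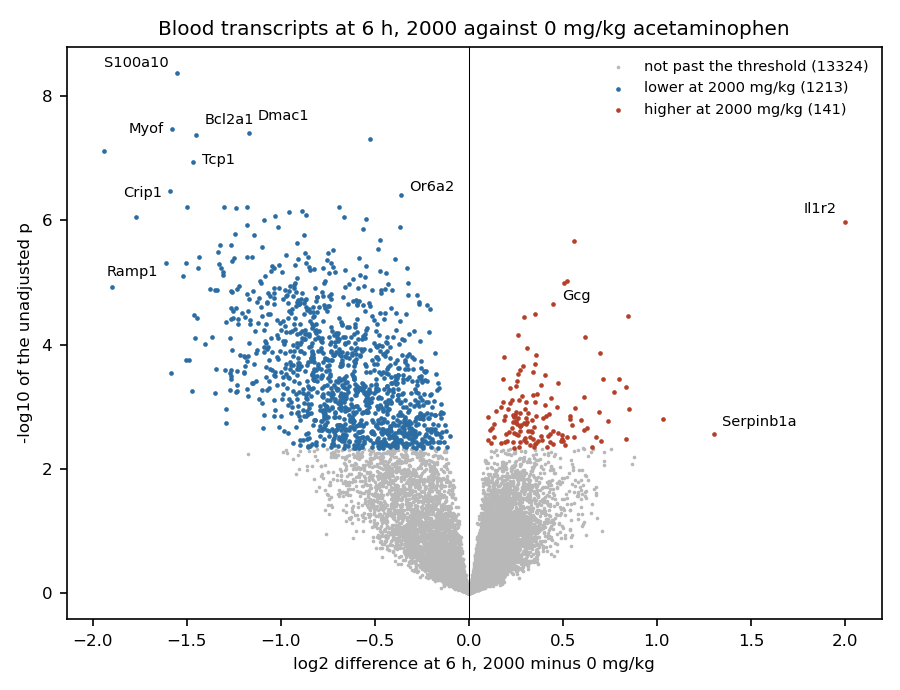
Each point is 1 of the 14678 features: its log2 difference, 2000 minus 0 mg/kg at 6 h, on the horizontal axis and the -log10 of its unadjusted p on the vertical one, with the 141 features that rose and the 1213 that fell in colour. The cloud of called features lies mostly left of 0, and Il1r2 is the farthest point to the right.

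The 2 named genes with the largest rise are both known from neutrophils. Il1r2, the decoy receptor that binds interleukin 1 without signalling, lay between 1.42 and 2.51 in the 2000 mg/kg rats (median 1.93), against -0.38 to 0.08 in vehicle rats (median -0.03). Every treated rat lay far above every vehicle rat, and the difference was 2.0 ± 0.37 (SE, adjusted p = 0.000665). Serpinb1a, an inhibitor of neutrophil elastase and related proteases, lay between 0.51 and 1.72 at 2000 mg/kg (median 1.17), against -0.32 to 0.06 in vehicle (median -0.20). Its groups did not overlap either, and its difference was 1.30 ± 0.42 (SE, adjusted p = 0.0348). The call on Serpinb1a was lost when any 1 of 7 rats was left out (vehicle 4101, 6034, 6749 and 9709, treated 8066, 8960 and 9434), with an adjusted p of up to 0.0904. Il1r2 kept its call without any 1 rat.

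Several regulators rose by small amounts with little or no overlap. Dusp1, a phosphatase that switches off stress-activated MAP kinases and a known glucocorticoid target, lay between 0.11 and 0.28 at 2000 mg/kg (median 0.17), against -0.23 to 0.03 in vehicle (median -0.06). The 2 groups did not meet, and the difference was 0.27 ± 0.07 (SE, adjusted p = 0.00743). The call on Dusp1 held without any 1 rat but was lost on the arrays of either dye alone and in the fit of single arrays with the rat as a block. Egr3, an immediate early transcription factor, was also higher in every treated rat, by 0.18 ± 0.05 (adjusted p = 0.0156). Pdk4, which restrains pyruvate oxidation in fasting and under glucocorticoids, rose by 0.30 ± 0.09 with groups that overlapped. Dgat2, the last enzyme of triglyceride synthesis, rose by 0.45 ± 0.14 without overlap, between 0.15 and 0.67 at 2000 mg/kg (median 0.44), against -0.15 to 0.09 in vehicle (median 0.00). Its 2 probes disagreed in size, at 0.90 and 0.003. Il12b, the p40 subunit of interleukins 12 and 23, rose by 0.42 ± 0.13 and likewise did not overlap. Left out singly, rat 8597 (2000 mg/kg) ended the call on Egr3 and rats 6749 (vehicle) and 3763 (2000 mg/kg) that on Il12b. For Dgat2 the call ended without any 1 of 5 rats (vehicle 3273 and 6749, treated 8066, 8960 and 9434) and for Pdk4 without any 1 of 3 (vehicle 4101, treated 8597 and 8960), with adjusted p up to 0.08 and 0.0647.

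Other risen genes are better known from tissues other than blood. Gcg, which encodes proglucagon, rose by 0.45 ± 0.10 (adjusted p = 0.00197), Si, the intestinal sucrase-isomaltase, by 0.62 ± 0.15 (adjusted p = 0.00373), and the bitter taste receptor Tas2r110 by 0.70 ± 0.20. For Gcg the vehicle value of rat 6034, at -0.86, lay far below the other 5. Of the fallen genes Or6a2, an olfactory receptor, was of this kind, at -0.44 to -0.27 in treated rats and -0.09 to 0.06 in vehicle rats. Signal intensities were not analysed here, so whether these probes stood above background is not known. Adck1, a kinase-like protein of mitochondria, had the third largest rise among named genes, at 0.71 ± 0.19, with a value in 4 of 6 treated rats. The cytoskeletal protein Vcl, which anchors actin to adhesion sites and is abundant in platelets, rose by 0.39 ± 0.10, and the sorting receptor Sorcs2 by 0.34 ± 0.09. The rises of Dcbld2, Bphl, Cldn5 and Fbxo39 ended when single rats were left out, in 8, 8, 5 and 2 of 12 cases, and that of Tas2r110 without rat 3763 or 9434 (both 2000 mg/kg). In the fit of single arrays with the rat as a block Vcl, Adck1, Tas2r110 and these 4 genes lost their calls, and on arrays of either dye alone Gcg and Si lost theirs.

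Among the largest falls were genes of proteins that act at membranes and of leukocyte activation. S100a10, the partner of annexin A2 at the plasma membrane, lay between -1.64 and -0.99 in the 2000 mg/kg rats (median -1.44), against -0.11 to 0.25 in vehicle (median 0.16). Treated and vehicle rats were separated by a wide gap, with a difference of -1.55 ± 0.23 (SE, adjusted p = 6.21e-05), the smallest adjusted p among named genes. Myof, a ferlin of membrane repair, lay between -2.28 and -0.86 at 2000 mg/kg, against -0.61 to 0.58 in vehicle. Bcl2a1, which protects leukocytes from apoptosis and is induced by NF-kappaB, lay between -1.98 and -0.79 at 2000 mg/kg, against -0.30 to 0.19 in vehicle, and fell by 1.45 ± 0.23 on the log2 scale. Ramp1, which turns the calcitonin receptor-like receptor into a receptor for the neuropeptide CGRP, had the largest fall among named genes, -1.61 ± 0.32. The LIM protein Crip1 (-1.59 ± 0.28) and Abi3 (-1.503 ± 0.38), an actin regulator of leukocytes, were also separated between groups, while Dusp22 (-1.49 ± 0.37), a phosphatase that restrains T cell receptor signals, overlapped. Tcp1, a subunit of the cytosolic chaperonin, fell by 1.47 ± 0.24 without overlap.

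Enzymes and organelle proteins stood beside them. Suclg1 of the citric acid cycle fell by 1.33 ± 0.26, the mitochondrial assembly factor Dmac1 by 1.17 ± 0.19, the lysophosphatidic acid phosphatase Acp6 by 1.24 ± 0.22 and the diacylglycerol kinase Dgkg by 1.31 ± 0.27, each without overlap. In Suclg1 rat 2864 was the highest treated rat at -0.72, against a group median of -1.49. Bin1, which bends membranes, fell by 1.37 ± 0.32 without overlap and the histone-binding Rbbp7 by 1.35 ± 0.37 with overlap, its call lost without rat 3763. Cryz, a quinone oxidoreductase, lay between -1.05 and -0.32 in treated rats, against -0.15 to 0.45 in vehicle rats.

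Among the 37 gene lists examined, the ribosomal protein genes had the highest share of falls (23 of 50, against 8.26% of all features), or of rises were the ratios the other way round. All features include 6324 probes without a gene symbol, and among named genes alone 9.05% fell. No list was matched to all features by signal intensity, so its share can differ from theirs for that reason too, which was not tested. Ribosomal proteins build the particle that reads mRNA, and in mammals most of their own mRNAs begin with a C followed by a run of pyrimidines, through which growth signals control how well they are translated. Start-site windows are shown for the ribosomal protein and translation factor genes named below that fell and have a single RefSeq entry, because this run is a known feature of the mRNAs of ribosomal proteins and of several translation factors. Each window holds 15 bases before and 15 from the annotated start in RefSeq (GRCr8). Capitals mark a C followed by at least 5 pyrimidines where that C lies within 10 bases of the start. Runs with no such C in that range are left in lower case. Bases before that range stay in lower case even where they belong to a marked run, as in Rpl5. Such longer runs were counted as present.
Rpl5 (chr14:1995211-1995240, minus strand): actctCTTTCCCacgtcgcttgcgtcctgg
Rps13 (chr1:180009646-180009675, minus strand): gccgtttcctacctcgttCTCTCTTTgctt
Rps6 (chr5:106420526-106420555, minus strand): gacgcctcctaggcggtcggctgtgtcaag
Rpl6 (chr12:41011676-41011705, minus strand): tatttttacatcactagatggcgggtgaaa
Eef1b2 (chr9:72074076-72074105, plus strand): tttccggccggtcccggCCCTTTTTCTCCC
Eif3m (chr3:111897179-111897208, minus strand): cgtaacaccgtgtggtaccgCTCCTTTTCC
Eif2s3 (chrX:62933685-62933714, minus strand): ggcggcagccgagcattttCCTTTTCTCTC
Eef1akmt2 (chr1:197070999-197071028, minus strand): ccgtgcatCCCCTCTgctcgagttgcgtct
Eif5b (chr9:47718691-47718720, plus strand): ccatatgtgccctgtcccagtgcgcgggtc
Eif4a2 (chr11:91275309-91275338, minus strand): gtcttttcagtcgggcgctgagtgggtttt

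The run was searched on the sense strand, and Rps6, Rpl6, Eif5b and Eif4a2 hold no such C within those 10 bases. Annotated starts were not checked against measured transcript ends, so a run can be missed where the annotation is off. In Rpl6 an ATG lies just after the annotated start. The counts that follow rest on the annotated starts too. The run was present in 26 of 41 tested ribosomal protein genes with a single promoter entry (63.4%). It was present in 17.6% of 6604 tested genes and 17.8% of 33469 promoters. Of ribosomal protein genes with the run 12 of 26 fell (46.2%), and of those without it 6 of 15 fell. Among other genes 114 of 1137 with the run fell (10.0%), and 490 of 5426 without it (9.03%). Both shares of other genes were close to the 8.26% of all features.

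Of 50 ribosomal protein genes 23 fell and none rose, 47 lay below 0, and their median difference was -0.38, against 0.02 over all features. Rpl5, which carries 5S RNA into the large subunit, lay between -1.87 and -0.81 in the 2000 mg/kg rats (median -1.55), against -0.55 to 0.09 in vehicle rats (median -0.35). The difference was -1.17 ± 0.28 (SE, adjusted p = 0.00415), and no treated rat reached the vehicle range. Rps6, the small-subunit protein phosphorylated by S6 kinases, lay between -1.44 and -0.63 at 2000 mg/kg (median -1.29), against -0.28 to 0.10 in vehicle (median -0.12). Rat 2864 was the highest treated rat at -0.63, and the difference was -1.09 ± 0.20. Rps13, also of the small subunit, lay between -0.83 and -0.46 at 2000 mg/kg, against 0.01 to 0.53 in vehicle, so vehicle rats were above the pool and treated rats below it. Rpl8 (-1.09 ± 0.27), Rpl6 (-1.05 ± 0.25) and Rpl27 (-0.93 ± 0.19), all of the large subunit, fell without overlap.

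Of 48 translation factor genes 16 fell (33.3%, against 8.26% of all features) and none rose, with a median of -0.24. Eef1b2, the exchange factor that recharges the elongation factor eEF1A, lay between -1.39 and -0.85 at 2000 mg/kg (median -1.31), against -0.17 to 0.19 in vehicle (median 0.00). All treated rats lay below all vehicle rats, by 1.24 ± 0.23 in the mean (adjusted p = 0.000848). The initiation factors Eif5b (-1.02 ± 0.23), which joins the subunits, Eif4a2 (-0.95 ± 0.24), an RNA helicase, and Eif3m (-0.93 ± 0.20) fell without overlap. Eif2s3, a subunit of the factor that brings initiator tRNA, fell by 0.99 ± 0.26 with overlap. The list also counts Eef1akmt2, a methyltransferase of eEF1A, which fell by 0.95 ± 0.20.

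RNA-binding proteins of the nucleus followed in part. Among 41 splicing and hnRNP genes 9 fell (22.0%, against 8.26% of all features) and none rose, and the median was -0.09, against 0.02 over all features. Hnrnpa2b1, which binds and sorts RNA, lay between -1.98 and -0.94 at 2000 mg/kg, against -0.58 to 0.16 in vehicle, and fell by 1.22 ± 0.26. Hnrnpa1 (-1.23 ± 0.28), a splicing repressor, and Hnrnpm (-1.04 ± 0.22) were also separated, as were 3 small nuclear ribonucleoproteins of the spliceosome, Snrpf (-1.03 ± 0.22), Snrpd1 (-0.997 ± 0.23) and Snrpc (-0.99 ± 0.20).

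Protein breakdown and folding genes fell as well. Of 39 proteasome genes 13 fell (33.3%, against 8.26% of all features) and none rose, 33 were below 0, and the median was -0.32. Psmb2, a subunit of the catalytic core, lay between -1.16 and -0.70 in the 2000 mg/kg rats (median -0.99), against -0.13 to 0.20 in vehicle rats (median 0.03). Neither group came near the other, and the difference was -1.01 ± 0.19 (adjusted p = 0.000709). The assembly chaperone Psmg4 fell by 1.30 ± 0.23, the ring subunits Psma4, Psma2 and Psma5 by 0.96 ± 0.21, 0.83 ± 0.20 and 0.80 ± 0.18, and the catalytic-ring subunit Psmb4 by 0.85 ± 0.19, all without overlap. Of 28 chaperone genes 6 fell (21.4%), with a median of -0.21: beside Tcp1 these were the mitochondrial Hspa9 (-0.91 ± 0.19) and Hspe1 (-0.44 ± 0.09), the chaperonin subunits Cct5 (-0.73 ± 0.16) and Cct6a (-0.38 ± 0.13), and the prefoldin Pfdn1 (-0.90 ± 0.27). Cct6a lost its call in 10 of 12 fits that left out 1 rat and Pfdn1 without rat 3273 (vehicle), 2864 or 8066 (both 2000 mg/kg).

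The respiratory chain moved the same way. Of 57 oxidative phosphorylation genes 20 fell (35.1%, against 8.26% of all features) and none rose, 44 were below 0, and the median was -0.27. Atp5f1c, the rotating central stalk of ATP synthase, lay between -1.60 and -0.64 at 2000 mg/kg (median -1.32), against -0.23 to 0.07 in vehicle (median -0.05). The groups were apart, with a difference of -1.18 ± 0.22 (adjusted p = 0.000709). The synthase subunits Atp5f1a (-0.95 ± 0.21) and Atp5f1e (-0.87 ± 0.17), the complex III proteins Uqcrfs1 (-0.88 ± 0.19) and Uqcrc2 (-0.75 ± 0.19) and the complex II protein Sdhb (-0.84 ± 0.17) fell without overlap.

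Genes of the endoplasmic reticulum and of metabolism gave smaller counts. Of 28 unfolded protein and amino acid stress genes 4 fell (14.3%, against 8.26% of all features) and none rose, with a median of -0.13. Herpud1 (-1.19 ± 0.30) and Edem1 (-1.15 ± 0.23), both of the degradation of misfolded proteins, P4hb (-0.87 ± 0.20), which forms disulfide bonds, and Ssr1 (-0.98 ± 0.23) of the translocon were these 4. Of 32 glycolysis and pentose phosphate genes 4 fell (12.5%, median -0.02), namely Ldhb (-0.86 ± 0.24), Pgk1 (-0.68 ± 0.17), Tkt (-0.66 ± 0.18) and Aldoa (-0.30 ± 0.10). In fatty acid oxidation 3 of 33 fell, a share of 9.09% that is near that of all features: Acadm (-0.44 ± 0.15), Acads (-0.44 ± 0.13) and Etfdh (-0.17 ± 0.06), while Pdk4, counted there too, rose. Aldoa and Acadm lost their calls in 9 of 12 fits that left out 1 rat, Etfdh in 7, Ldhb and Acads without rat 6749 (vehicle) and Tkt without rat 8597 (2000 mg/kg).

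**Figure D2:**
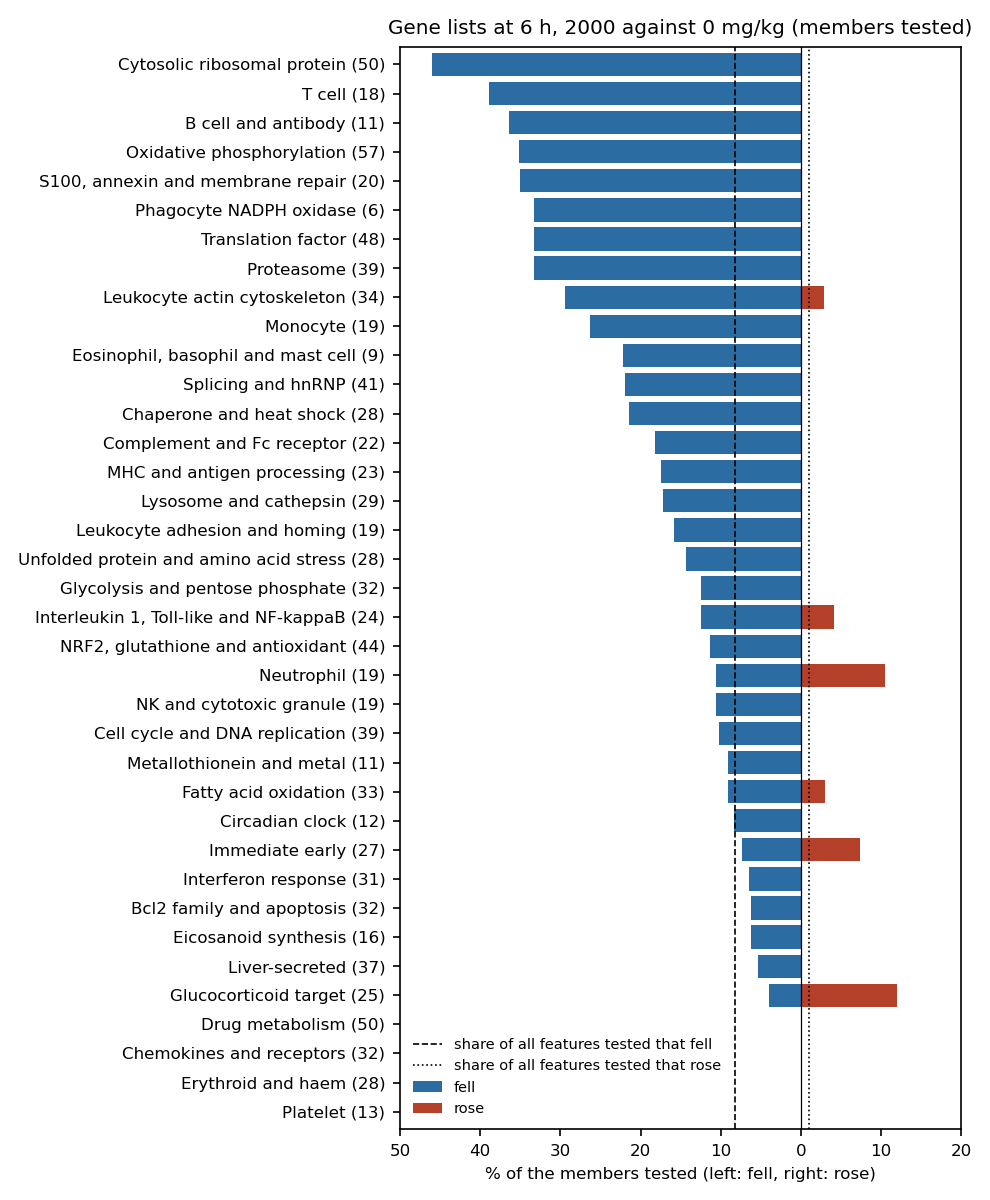
For each of the 37 gene lists the bars give the share of tested members, in percent, that fell (left of 0) or rose (right of 0) at 6 h, 2000 against 0 mg/kg, with a dashed line at the 8.26% of all features that fell and a dotted one at the 0.961% that rose. The ribosomal, T cell, B cell, oxidative phosphorylation and S100 lists reach farthest to the left, and the platelet, erythroid, chemokine and drug metabolism lists show no bar.

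Lymphocyte transcripts were lower, though not every T cell marker. Of 18 T cell genes 7 fell (38.9%, against 8.26% of all features) and none rose, with a median of -0.37. Cd5, a receptor that dampens antigen signals in T cells, lay between -1.52 and -0.71 in the 2000 mg/kg rats (median -1.32), against -0.25 to 0.29 in vehicle rats (median -0.06). The groups were fully apart, and the difference was -1.20 ± 0.31 (SE, adjusted p = 0.0077). Lck, the kinase that starts T cell receptor signalling, lay between -1.68 and -0.76 at 2000 mg/kg, against -0.37 to 0.32 in vehicle, and fell by 1.19 ± 0.31. The kinase Zap70 (-1.10 ± 0.24), the receptor Cd6 (-1.12 ± 0.32), the CD45-associated Ptprcap (-0.90 ± 0.24), the receptor chain Cd3g (-0.83 ± 0.19) and the adaptor Lat (-0.83 ± 0.28) fell without overlap, Lat with its call lost in 8 of 12 fits that left out 1 rat. Cd3e and Cd8a, which define T cells and their cytotoxic subset, were within 0.05 of vehicle (-0.01 and -0.05), and Cd2 was at -0.79 with an adjusted p of 0.0783. Vehicle values of Cd3e and Cd8a spanned only -0.07 to 0.115 and -0.03 to 0.09. Without signal intensities it is not known whether these probes, or those of unmoved markers below, stood above background. Cd4 had too few values to be tested.

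Of 11 B cell and antibody genes 4 fell (36.4%, against 8.26% of all features) and none rose, with a median of -0.28. Jchain, which links IgA and IgM into polymers in antibody-secreting cells, lay between -1.93 and -0.76 at 2000 mg/kg (median -1.32), against -0.18 to 0.43 in vehicle (median 0.07). No treated rat overlapped with vehicle, and the difference was -1.45 ± 0.32. Spib, a transcription factor of B cells and plasmacytoid dendritic cells, fell by 1.27 ± 0.35 and the adaptor Blnk by 0.86 ± 0.28, Blnk with its call lost in 10 of 12 fits without 1 rat. Ms4a1, which encodes CD20, fell by 0.64 ± 0.15, but its 2 probes differed in sign, at -1.42 and 0.13. Cd79b, of the B cell receptor, was at -0.28 (adjusted p = 0.395).

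Natural killer transcripts gave little. Of 19 genes of the list 2 fell (10.5%, close to the 8.26% of all features), with a median of -0.02. These were the receptor Klrc2 (-0.81 ± 0.21) and the transcription factor Tbx21 (-0.71 ± 0.23), which type 1 T helper cells also use and whose call was lost in 9 of 12 fits that left out 1 rat. The defining markers Ncr1, Klrd1, Prf1, Nkg7 and Klrk1 were at 0.15, -0.01, -0.02, -0.29 and -0.30, none past the threshold.

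Monocyte genes split between falls and no detectable movement. Of 19 genes 5 fell (26.3%, against 8.26% of all features) and none rose, and the median was -0.01. Fn1, fibronectin, lay between -1.67 and -0.26 at 2000 mg/kg, against -0.16 to 0.13 in vehicle, and fell by 1.24 ± 0.27. Mnda, a nuclear protein of myeloid cells, fell by 1.45 ± 0.34, Ifi30, the lysosomal thiol reductase of antigen processing, by 1.44 ± 0.29, Ms4a6a by 0.47 ± 0.09 and the galectin Lgals3 by 0.44 ± 0.11, all without overlap. The defining markers Cd14 (0.01), Cx3cr1 (0.04), Csf1r (0.15) and Fcgr1a (-0.31) did not pass, nor did Lyz2, whose -0.92 ± 0.36 (adjusted p = 0.0928) spread from -2.92 to -0.15 over the treated rats.

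Of 19 neutrophil genes 2 rose, Il1r2 and Serpinb1a (10.5%, against 0.961% of all features), 2 fell (10.5%, near the 8.26% of all features) and the median was 0.09. The 2 that fell were Fcnb, a ficolin of the lectin complement pathway (-1.34 ± 0.35, with overlap), and Cyba, the membrane subunit of the NADPH oxidase (-0.56 ± 0.19, lost in 7 of 12 fits without 1 rat). S100a8 and S100a9, which form calprotectin and are among the most abundant neutrophil transcripts, were at 0.17 ± 0.43 and 0.19 ± 0.42, and S100a8 alone ran from -0.51 to 1.498 in vehicle rats. Mmp8, a granule collagenase, was at 0.68 ± 0.36 (adjusted p = 0.254) and the chemokine receptor Cxcr2 at 0.09.

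Platelet and erythroid lists gave no call, with medians of 0.02 over 13 genes and 0.05 over 28 genes. The platelet markers Pf4, Ppbp and Gp5 were at 0.01, -0.07 and 0.06, and the erythroid markers Alas2, Slc4a1 and Epb42 at 0.05, 0.07 and 0.05. Of 9 eosinophil, basophil and mast cell genes 2 fell (22.2%, against 8.26% of all features), the histidine decarboxylase Hdc (-0.85 ± 0.25), which makes histamine, and the tryptase Tpsab1 (-0.17 ± 0.04), Hdc with its call lost without rat 7270 (vehicle) or 9434 (2000 mg/kg). Transcripts of liver cells, which blood could carry as free RNA, were at 0.03 (Apoa1), 0.22 (Ttr) and 0.21 (Fgb), none past the threshold. Of 37 liver-secreted protein genes 2 fell, a share of 5.41% that is under that of all features, and none rose, with a median of 0.06: Plg, plasminogen, by 0.27 ± 0.08, and the complement protein C3, which leukocytes make as well, by 0.73 ± 0.25 (lost in 9 of 12 fits without 1 rat). The part of these cell types in the falls above was not tested beyond these markers.

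**Figure D3:**
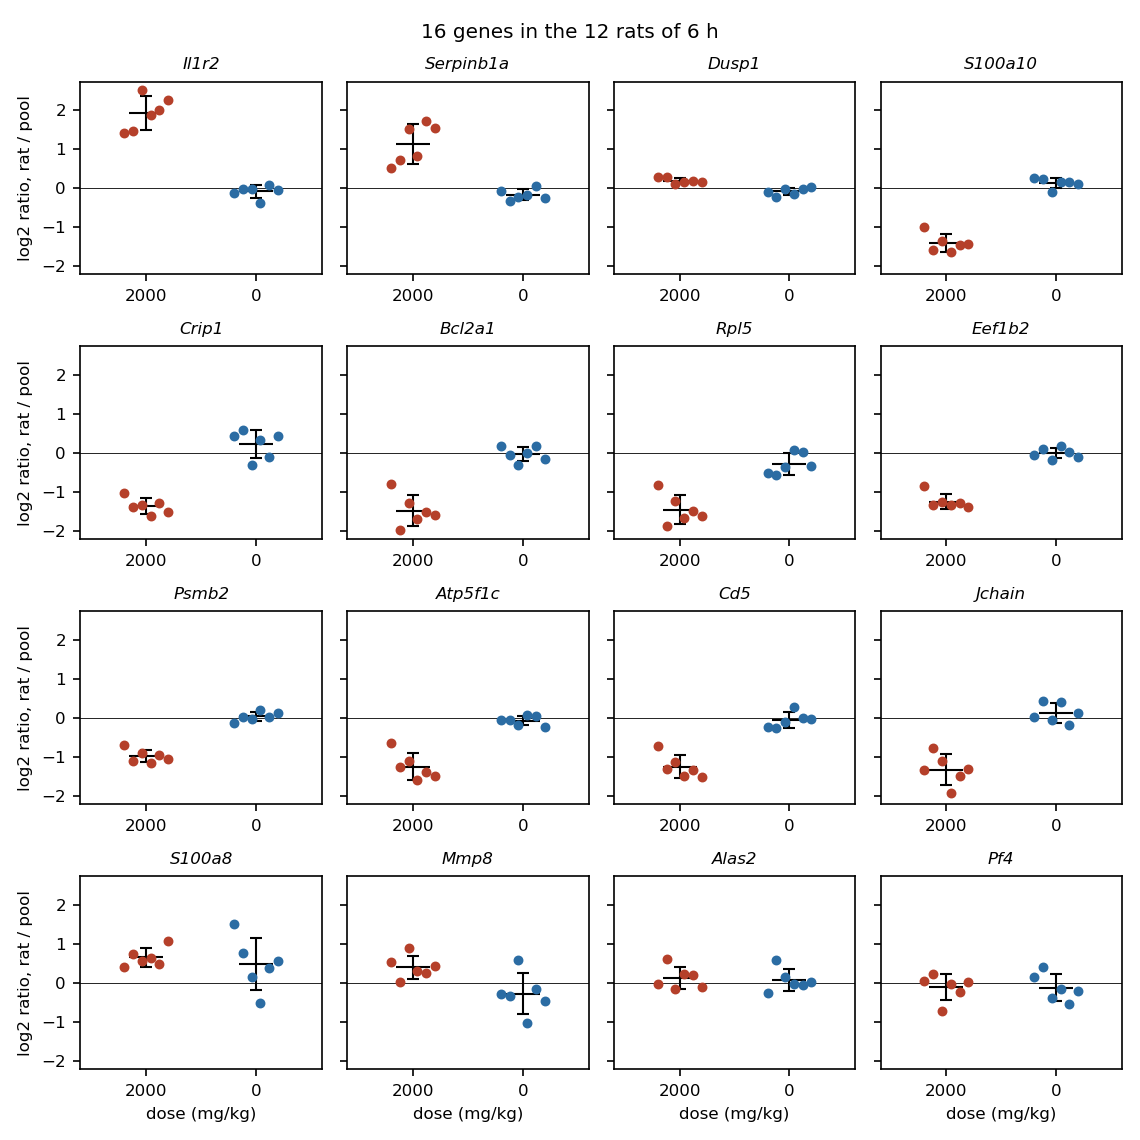
Each point is the log2 ratio over pool of 1 rat at 6 h for a gene named in the text, with 2000 mg/kg rats left of vehicle rats and bars of the mean ± SD. Il1r2, Serpinb1a and Dusp1 lie above the vehicle rats, the 9 fallen genes from S100a10 to Jchain lie below them without overlap, and S100a8, Mmp8, Alas2 and Pf4 overlap.

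Of 34 leukocyte actin genes 10 fell (29.4%, against 8.26% of all features) and 1 rose, with a median of -0.24. The 1 that rose was Gsn, gelsolin, which severs actin filaments, by 0.11 ± 0.04; it was named after its value was seen, and its call was lost in 8 of 12 fits that left out 1 rat. Rac2, the small GTPase that drives actin and the NADPH oxidase in blood cells, lay between -1.03 and -0.40 at 2000 mg/kg (median -0.74), against -0.05 to 0.34 in vehicle (median 0.10). It was lower in every treated rat, by 0.85 ± 0.17 in the mean. The Arp2/3 subunits Arpc2 (-0.80 ± 0.17) and Arpc5 (-0.85 ± 0.20), which branch actin, and Evl (-0.90 ± 0.23), which lengthens it, fell, the first without overlap. Coro1a, a coronin of lymphocytes, fell by 1.18 ± 0.32, and its call was lost without rat 3763 (2000 mg/kg), with an adjusted p of 0.0545.

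Of 20 S100, annexin and membrane repair genes 7 fell (35.0%, against 8.26% of all features) and none rose, with a median of -0.08. S100a10 and Myof were the largest, followed by the phosphatidylserine-binding Anxa5 (-0.84 ± 0.20), Anxa6 (-0.74 ± 0.21), S100a4 (-0.66 ± 0.20) and S100a6 (-0.47 ± 0.10). The call on S100a4 was lost in 6 of 12 fits that left out 1 rat. Of 19 adhesion and homing genes 3 fell (15.8%, median -0.12), the integrin chain Itga4 (-0.79 ± 0.26), the phagocyte receptor Sirpa (-0.72 ± 0.24) and its ligand Cd47 (-0.60 ± 0.14), with Itga4 and Sirpa each lost in 8 of 12.

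In lists of innate immunity and antigen handling the share that fell was 18.2% for complement and Fc receptors, 17.4% for MHC and antigen processing and 17.2% for lysosomal genes, against 8.26% of all features, with medians of -0.08, -0.06 and -0.06. Of 22 complement and Fc receptor genes 4 fell, namely Fcnb, the IgG receptor Fcgr3a (-0.76 ± 0.16), C3 and Cr1l (-0.53 ± 0.14), a regulator of complement in rodents. The 4 of 23 MHC and antigen processing genes were Ifi30, the lipid-presenting Cd1d1 (-1.20 ± 0.30), the proteasome activator Psme2 (-0.80 ± 0.19) and the trimming peptidase Erap1 (-0.73 ± 0.20), all without overlap. Lysosomal genes gave 5 falls of 29, with the acid lipase Lipa (-1.15 ± 0.31) and the cathepsin Ctsz (-0.96 ± 0.22) ahead of Laptm5 (-0.64 ± 0.15) and the cholesterol transporter Npc1 (-0.49 ± 0.12, with its 3 probes between -1.28 and -0.03), beside Ifi30. Of 6 NADPH oxidase genes Rac2 and Cyba fell (33.3%, median -0.13), which stand in other lists too. The prostaglandin receptor Ptger4 was the 1 of 16 eicosanoid genes that fell (-0.43 ± 0.11), and Bcl2a1 and Casp1 were the 2 of 32 Bcl2 family and apoptosis genes. The share was 6.25% in each of these last lists, below that of all features, with medians of 0.02 and 0.0008.

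Of 24 interleukin 1, Toll-like and NF-kappaB genes Il1r2 rose (4.17%, against 0.961% of all features) and 3 fell (12.5%, against 8.26%), with a median of -0.01. The 3 were the inflammatory caspase Casp1 (-0.81 ± 0.19), the TNF receptor Tnfrsf1b (-0.67 ± 0.14) and the NF-kappaB inhibitor Nfkbia (-0.75 ± 0.23), itself a target of NF-kappaB. The call on Nfkbia was lost without rat 4101 (vehicle), 3763 or 8597 (both 2000 mg/kg). None of 32 chemokine and chemokine receptor genes passed. Of 31 interferon response genes 2 fell (6.45%, under the share of all features, median -0.02), Ifi27l2b (-1.08 ± 0.25) and the RNA-sensing kinase Eif2ak2 (-0.79 ± 0.23), whose call was lost without rat 7270 (vehicle) or 8597 (2000 mg/kg). In the immediate early list Dusp1 and Egr3 rose and Dusp6 (-1.20 ± 0.27), a phosphatase specific for ERK, and the antiproliferative Btg1 (-1.05 ± 0.27) fell, out of 27, or 7.41% in each direction, against 0.961% of all features that rose and 8.26% that fell.

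Of 25 targets of the glucocorticoid receptor 3 rose (12.0%, against 0.961% of all features), among them Dusp1 and Pdk4 beside Il1r2, which glucocorticoids induce in leukocytes, and 1 fell (4.0%, under the 8.26% of all features), with a median of -0.04. The 1 that fell was the metallothionein Mt1, which binds zinc and copper, at -0.66 to -0.37 in treated rats and -0.15 to 0.05 in vehicle rats. Of 44 NRF2, glutathione and antioxidant genes 5 fell (11.4%) and none rose. Sod1, the cytosolic superoxide dismutase, fell by 0.94 ± 0.21, the peroxiredoxins Prdx6 and Prdx1 by 0.68 ± 0.17 and 0.26 ± 0.08, the glutaredoxin Glrx by 0.62 ± 0.15, and Tkt is the last of the 5. The call on Prdx1 was lost without rat 4101 (vehicle) or 8597 (2000 mg/kg). None of 50 drug metabolism genes passed. Of 12 clock genes Dbp fell, by 0.25 ± 0.07, a call lost without rat 6749 (vehicle). Of 39 cell cycle genes 4 fell, the replication clamp Pcna (-0.73 ± 0.16), the helicase subunit Mcm5 (-0.61 ± 0.18), the kinase Aurkb (-0.21 ± 0.07) and the nuclease Fen1 (-0.20 ± 0.07), the last 2 each lost in 9 of 12 fits that left out 1 rat and Mcm5 in 3 (vehicle 3273 and 4101, treated 8597). These shares, 8.33% of the clock genes and 10.3% of the cell cycle genes, were near the 8.26% of all features, and the cell cycle median was 0.06.

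At 6 h, 5 of the 6 rats given 1500 mg/kg had values on the side of 2000 mg/kg for most genes named here. The comparison of 2000 with 1500 mg/kg had no feature past an adjusted p of 0.05 in limma (677 at an unadjusted p under 0.05), and a miss does not show that the doses act alike. With array weights the same contrast called 307 features, 237 higher and 70 lower at 2000 mg/kg. Il1r2 differed by 0.16 ± 0.37 between 2000 and 1500 mg/kg, S100a10 by -0.32 ± 0.23, Rpl5 by -0.33 ± 0.28, Psmb2 by -0.19 ± 0.19 and Cd5 by -0.29 ± 0.31. Set against the same vehicle rats, 2000 mg/kg gave 1354 features and 1500 mg/kg gave 110 (0.749%), 14 higher (0.0954%) and 96 lower (0.654%), while 150 mg/kg gave none (0.0%). These counts share their 6 vehicle rats.

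Rat 0621 of the 1500 mg/kg group stood apart from the other 5 of its group. Over 147 genes named here that rose or fell at 2000 mg/kg it was inside the vehicle range in 73, past it in the direction of 2000 mg/kg in 9 and past it in the opposite direction in 65. In 126 of the 147 at least 4 of the other 5 rats of its group were past the vehicle range in the direction of 2000 mg/kg. These genes had been called by a difference from the same vehicle rats, and the counts describe 1 rat against 5. Matching counts over all features were not made. Il1r2 was at 0.03 in rat 0621 and between 1.45 and 2.62 in the other 5, and S100a10 was at 0.19, against -1.62 to -0.98. Without rat 0621 the 1500 mg/kg comparison called 993 features, 127 higher and 866 lower, and 2000 against 1500 mg/kg still called none. At an unadjusted p under 0.05 that contrast had 405 features without rat 0621, 1630 without rat 9676 (1500 mg/kg) and 1341 without rat 2864 (2000 mg/kg), against 677 with all rats. Why the rat differed was not tested.

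The median over the 1213 fallen features gives each rat 1 value. It lay between -0.78 and -0.37 at 2000 mg/kg, with rat 2864 the least lowered, against -0.12 to 0.04 in vehicle, a gap that follows from how the features were chosen. The rats of the other doses entered that choice through the estimate of spread that all groups share and through the filter on missing values, which covers every group, but their means did not; with the 2 groups fitted alone 1688 features fell. At 150 mg/kg it lay between -0.22 and -0.02, and at 1500 mg/kg between -0.82 and 0.12, the highest value being that of rat 0621. The median over the 141 risen features lay between 0.16 and 0.24 at 2000 mg/kg, against -0.13 to -0.05 in vehicle. That gap too follows from the choice of features, which the vehicle values entered. Every 150 mg/kg rat, at -0.03 to 0.05, lay above every vehicle rat, although no feature was called at 150 mg/kg. The choice favours features with low values in these vehicle rats, so this gap cannot be read as an effect of 150 mg/kg. Over the same features the vehicle rats of 3 h lay between -0.04 and 0.04 and those of 24 h between -0.085 and 0.07, each against the pool of their time. The median over the ribosomal protein genes was between -0.56 and -0.37 at 2000 mg/kg, and over the proteasome genes between -0.51 and -0.22, against -0.13 to 0.09 and -0.11 to 0.01 in vehicle.

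**Figure D4:**
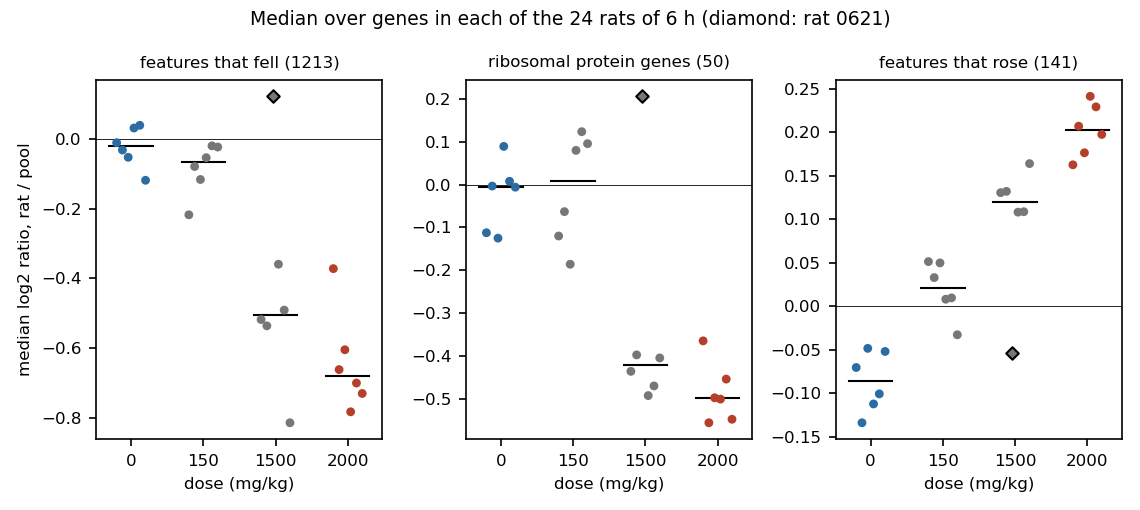
For every rat at 6 h the points give the median log2 ratio over pool across a set of features, by dose from 0 to 2000 mg/kg, with rat 0621 as a diamond. For the fallen features and the ribosomal protein genes the rats at 1500 and 2000 mg/kg lie below those at 0 and 150 mg/kg except for rat 0621. For the risen features they lie above them, again except for rat 0621. There the 150 mg/kg rats lie above the vehicle rats, whose values entered the choice of these features.

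A large part of the falls at 6 h was also called at 3 h, and few features were called at 24 h. At 3 h 2000 mg/kg gave 1355 features past the threshold (9.23%), 134 higher (0.913%) and 1221 lower (8.32%), against vehicle rats and a pool of that time. Of the 1354 features at 6 h 683 (50.4%) were called at 3 h too, all in the same direction, which is also 50.4% of the 3 h features. The shared part was made of falls: 679 features fell at both times (56.0% of the 6 h falls), and 4 rose at both (2.84% of the 6 h rises). At 3 h 25 of the 50 ribosomal protein genes fell, 14 of 39 proteasome genes, 20 of 57 oxidative phosphorylation genes and 8 of 18 T cell genes.

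A test of the difference between the 3 and 6 h effects called 1 feature of 14678 (0.00681%), St3gal4, a sialyltransferase that builds selectin ligands on leukocytes. It fell by 1.16 ± 0.20 at 3 h and was at 0.26 ± 0.20 at 6 h, and the 2 effects differed by 1.43 ± 0.28 (adjusted p = 0.0494). The call ended when exact zeros were kept as values, and in 19 of the 24 fits that left out 1 rat no feature was called. Il1r2 was at 0.71 ± 0.37 at 3 h and Serpinb1a at -0.46 ± 0.42, neither past the threshold, but their change to 6 h (1.30 and 1.76) did not pass either (adjusted p = 1 and 0.891). S100a10, Rpl5, Psmb2 and Cd5 were at -1.73, -1.19, -1.10 and -1.69 at 3 h, each called.

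At 24 h 120 features (0.818%) passed, 72 higher (0.491%) and 48 lower (0.327%), and the ribosomal, proteasome, oxidative phosphorylation and T cell lists had none. Of the members of these lists 42 of 50, 33 of 39, 39 of 57 and 16 of 18 lay below 0 at 24 h, against 7489 of 14678 features. The 24 h effect differed from the 6 h effect in 538 features (3.67%), with 441 (3.0%) more positive and 97 (0.661%) more negative at 24 h. Leaving out 1 rat moved this count between 329 (without 9999, 24 h, 2000 mg/kg) and 977 (without 5402 of the same group). With all rats it held 1 of 50 ribosomal, 0 of 39 proteasome, 1 of 57 oxidative phosphorylation and 0 of 18 T cell genes. A return of these lists by 24 h was therefore not shown. The rats of 24 h and 2000 mg/kg were spread, with medians over the fallen features from -0.58 (rat 5402) to 0.36 (rat 2342).

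The named genes with the largest upward change between 6 and 24 h were ones that were low at 6 h. The change is the 24 h effect minus the 6 h effect, so this choice by itself favours genes that were low at 6 h. Bcl2a1 was at -1.45 ± 0.23 at 6 h and 0.59 ± 0.23 at 24 h, a change of 2.04 ± 0.33 (adjusted p = 0.000152). B4galnt4, a glycosyltransferase, changed by 2.08 ± 0.41, the junction protein Frmd6 by 1.98 ± 0.42, Mab21l2 by 1.90 ± 0.36 and the scaffold Cask by 1.81 ± 0.40. Their fall at 6 h was -1.38, -1.27, -1.09 and -1.34, and none of the 4 passed at 3 h or at 24 h. Lgals3 (-0.44 at 6 h) rose by 0.58 ± 0.11 at 24 h, and Glrx (-0.62 at 6 h) rose by 0.58 ± 0.15. The IgG receptor Fcgr1a, which did not pass at 6 h, rose by 0.90 ± 0.18 at 24 h.

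Not all genes turned back. Il1r2 was at 1.83 ± 0.37 and Serpinb1a at 1.97 ± 0.42 at 24 h, both called, and neither differed from 6 h by the test of the difference (adjusted p = 0.907 and 0.61). Dgat2 likewise was at 0.68 ± 0.14. S100a9 and Mmp8 passed at 24 h (1.74 ± 0.42 and 1.64 ± 0.36) and not at 6 h, without a call on the difference (adjusted p = 0.14 and 0.331). By then 7 of 19 neutrophil genes had risen (36.8%, against 0.491% of all features at 24 h). Cd36, a scavenger receptor of platelets and monocytes, was at -0.01 ± 0.15 at 6 h and fell by 1.01 ± 0.15 at 24 h, a difference of -0.995 ± 0.21 (adjusted p = 0.00262). Ribosomal Rpl5 (-0.34) and T cell Cd5 (-0.49) were not called at 24 h, and their change since 6 h was not called either (adjusted p = 0.262 and 0.428).

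**Figure D5:**
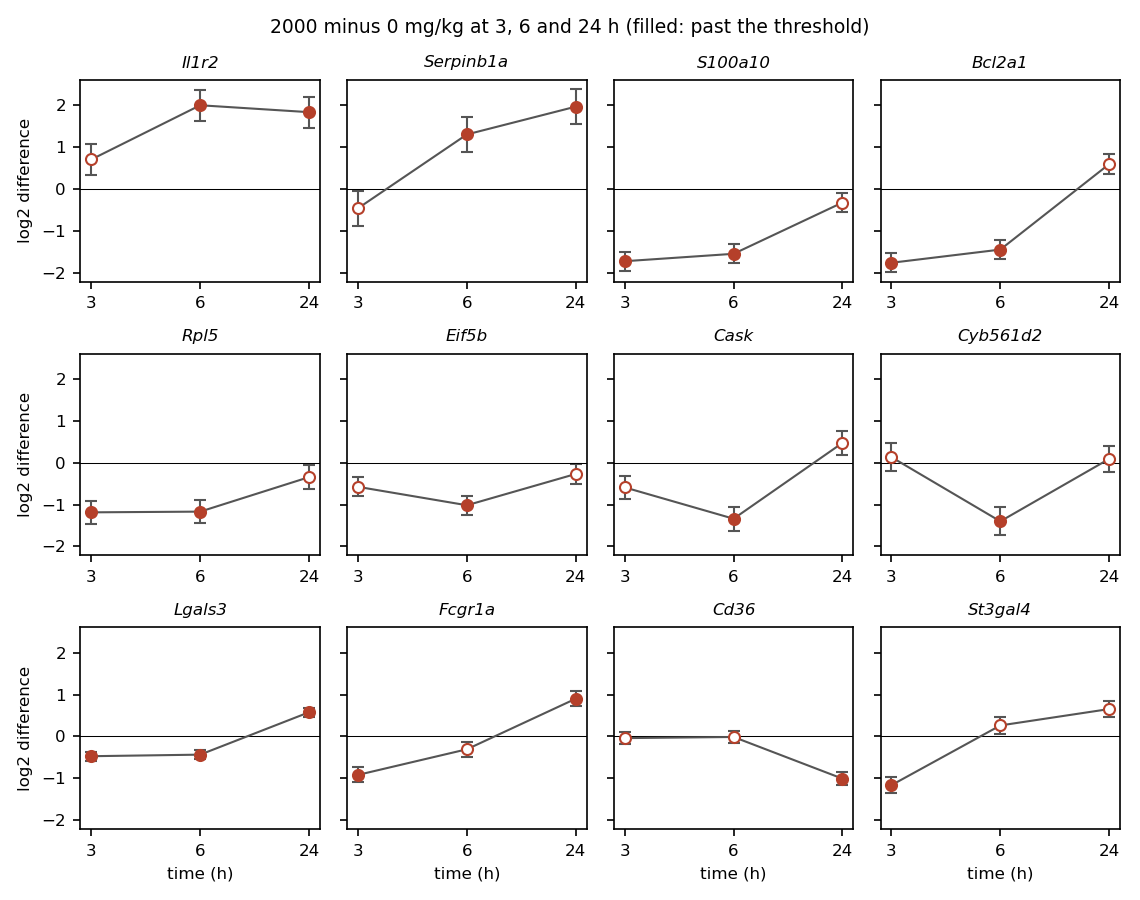
Log2 difference, 2000 minus 0 mg/kg, at 3, 6 and 24 h (evenly spaced on the horizontal axis), with bars of 1 SE. The genes are named in the text, except for Cyb561d2, which is shown here alone. Filled points passed the threshold: Il1r2 and Serpinb1a stay high at 24 h, genes low at 6 h lie nearer 0 or above it at 24 h, and Cd36 is called at 24 h alone.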

How the data were processed

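Whole-blood RNA was measured on 2-colour oligonucleotide arrays. The deposited table holds 1 value per probe and array, taken as a log10 ratio that the authors had already normalised; these sources name no tool. The 500 probes absent on 91 arrays were left out (21575 of 22075 used), and exact zeros were set to missing. Values were turned to log2 of rat over pool from the authors' log10 ratios, with the sign changed where the rat was in Cy3, and the 2 arrays of a rat averaged, both being needed. Probes of 1 symbol (12750, giving 9653 genes) were averaged per gene; 5 with several symbols and 8820 with none were kept singly. Features with values in at least 4 of 6 rats of each group gave 14678, of which 8354 are named genes, with 0.686% of values missing in the groups compared; none were imputed.

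Differences were tested with limma 3.58.1 under R 4.3.3, fitting 12 group means to all 72 rats at once (prior degrees of freedom 2.37), two-sided, with Benjamini-Hochberg adjustment over all features and a threshold of 0.05. Differences between times were interaction contrasts. The labels name separate rats, so p-values measure the spread between rats; no depth exists for arrays, whose number limits the precision. On simulated data for this comparison the step recovered 74.6% of 1.5-fold, 89.6% of 2-fold and 100% of 4-fold changes. It made 9 false calls among 14678 features, of which 200 were simulated as changed. In the rats themselves 1354 features were called, and leaving out single rats gave 921 to 1617. The simulation therefore does not measure how many of the calls in the rats are false.

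The comparison, the 37 gene lists and their members were chosen with earlier results of these data known. Genes were named by a rule: the 20 named genes that rose most and the 20 that fell most, the 10 with the smallest p in each direction, for each list up to 6 called members (or the 2 smallest p), the 5 largest in each direction for the contrasts with 1500 mg/kg and between times, and the cell type markers. A list is described by its counts, beside the share of all features called, and mostly by its median. The alternative without rat 0621 was chosen after seeing the data. Start-site sequences are RefSeq's (GRCr8), and sequences of genes without a single entry are not shown. Statmod 1.5.0, Python 3.11.15, pandas 2.3.3, NumPy 2.4.6 and matplotlib 3.10.9 served the block fit, tables and figures. No per-sample column was left unused.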

Additional observations from a re-analysis of the deposited data

Results flagged for a closer look

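In a group of 6 rats a value was set apart where its gap to the nearest other rat exceeded, as a share of the group's range, Dixon's 95% critical value. This happened in 27 of 358 gene and group pairs (7.54%), where chance gives about 1 in 20. In the 2000 mg/kg group rat 2864 was the highest for 11 genes, with log2 ratios of -0.62 for Ifi30, -0.72 for Suclg1, -0.32 for Cryz, -0.63 for Rps6, -0.85 for Eef1b2 and -0.58 for Hnrnpa1. The same rat had -0.48 for Psmb4, -0.46 for Atp5f1e, -0.39 for Evl, -0.46 for Anxa5 and -0.52 for Ptprcap. It was still below every vehicle rat for 10 of these genes. Rat 8066 of that group was lowest for Rps13 (-0.83) and Ncr1 (-0.13) and highest for Fgb (0.45), and rat 3763 was highest for Cd3e (0.18).

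Among vehicle rats, rat 6034 was lowest for Gcg (-0.86), Cldn5 (-0.93) and S100a10 (-0.11) and highest for Sorcs2 (0.0758). Rat 3273 was highest for Cryz (0.45) and Cd3g (0.74), rat 6749 for Rpl27 (0.40) and Uqcrfs1 (0.29), and rat 7270 for Hdc (0.19). Rat 4101 was highest for Gp5 (0.25) and Fen1 (0.32), and rat 9709 was lowest for Cd47 (-0.29).

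The effect of 2000 mg/kg differed between times by the test of the difference itself for the following genes (limma, adjusted p under 0.05). The 6 h effect is subtracted in the change from 6 to 24 h. Genes that had risen at 6 h are therefore favoured among downward changes, and genes that had fallen among upward ones. From 3 to 6 h it moved by 1.43 on the log2 scale for St3gal4, while no feature was called in 19 of 24 fits that left out 1 rat. From 6 to 24 h it moved downward by -0.28 for Egr3, -0.40 for Pdk4, -0.56 for Vcl, -0.87 for Adck1, -1.001 for Tas2r110, -0.51 for Gcg and -0.81 for Fbxo39, all of which had risen at 6 h. It also moved downward by -0.995 for Cd36, -0.90 for the collagen chain Col4a3, -1.38 for the cone transducin Gnat2 and -0.93 for the phosphatase subunit Ppp4r2, which had no call at 6 h.

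Upward from 6 to 24 h moved genes that had fallen at 6 h. Among those of protein synthesis and folding the change was 1.15 for Eif4a2, 1.40 for Eef1akmt2, 1.16 for Tcp1, 1.54 for Herpud1 and 1.504 for Edem1. Among leukocyte genes it was 2.04 for Bcl2a1, 1.34 for Ifi30, 1.07 for Arpc5, 1.09 for Klrc2, 0.79 for Ms4a6a, 1.01 for Lgals3, 1.38 for Hdc and 0.26 for Tpsab1. Signalling and stress genes changed by 1.15 (Nfkbia), 0.80 (Tnfrsf1b), 0.65 (Ptger4), 1.48 (Eif2ak2), 1.20 (Glrx), 0.61 (Mt1) and 0.35 (Dbp), and the olfactory receptor gene Or6a2 by 0.55. Membrane and lysosome genes changed by 1.22 (S100a10), 1.21 (Anxa6), 0.9999 (Ctsz) and 0.77 (Npc1). The change was 1.15 for Dmac1, 1.08 for Cryz, 0.87 for Pcna, 0.39 for Plg, 2.08 for B4galnt4, 1.81 for Cask, 1.98 for Frmd6 and 1.90 for Mab21l2. For Fcgr1a, which had no call at 6 h, it was 1.21.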

How the results depend on the processing

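The 1354 features called at 6 h became 3272 with array weights, 720 with the rats' Cy3 arrays alone, 5655 against the pool in place of the single vehicle rats and 738 with a 1.5-fold minimum. Under the other settings they numbered between 919 (arrays centred and scaled) and 1891 (the 2 groups fitted alone), and leaving out 1 rat gave 921 to 1617. Leaving out 1 rat gave 0 to 0 features between 2000 and 1500 mg/kg, 0 to 2 between 6 and 3 h and 329 to 977 between 24 and 6 h. With array weights these contrasts gave 307, 34 and 1379 features, and with zeros kept the second gave 0. Of 160 genes named by rule that changed, 104 kept their call on Cy3 arrays alone and 135 to 153 without 1 rat. Of 954 list members 174 changed, 306 with array weights and 139 to 198 without 1 rat. Epb42 reversed against the pool, at -0.16 (adjusted p = 0.0378), against 0.05 and no call. Without rat 0621 the 1500 mg/kg comparison called 993 features. No other named value changed sign in a call. The cause of these shifts was not tested. Vehicle RNA makes up the pool, so a test against it leaves out part of the spread of controls. No paired analysis was possible because rat numbers are not shared between groups. Limits are 6 rats a group, weak agreement between a rat's 2 arrays once probe means are subtracted, no signal intensities, and a scale and direction taken as likely.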
